A study of Mus musculus with 12 samples.

Results

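The cyclins, the cyclin-dependent kinases (CDKs), their inhibitors, the E2F transcription factors and the pocket proteins form the core machinery of the cell cycle, and their RNA was followed here in PUER cells. The genes were taken by name from the arrays: every probe whose gene name marks a cyclin (Ccn), a numbered Cdk, a Cdkn inhibitor, Cdc2a (the older name of Cdk1), an E2f, Rb1, Rbl1 or Rbl2, apart from Cdkn1a, Cdkn1b and Ccng1. This gave 93 probes for 48 gene names, among 41174 probes for 27962 names in all. There were 5 G1 cyclins, 6 S phase and mitotic cyclins, 10 cyclins of transcription or other function, 10 CDKs, 6 inhibitors, 8 E2F factors and 3 pocket proteins. PUER is a mouse myeloid line that lacks PU.1 and carries a fusion of PU.1 to the estrogen receptor. It grows in IL-3, and 4-hydroxytamoxifen (4-OHT) activates the fusion so that the cells mature. GFP-sorted cells held one of a pair of retroviral vectors, the control or one that encodes a hairpin (shRNA) to knock down Hnrnpa0. RNA came from untreated cells and from cells given 2 nM 4-OHT for 24 h. Each of these 4 groups held 3 one-colour arrays (A, B and C), and per the labels each vector had its own clones, so a vector difference is also a difference between clones. All groups shared the line, the fusion, IL-3 and retroviral infection. Vehicle is mentioned in the protocol, but no array is labelled as cells kept in it.

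D-type cyclins with CDK4 or CDK6, and E-type cyclins with CDK2, phosphorylate the pocket proteins Rb1, Rbl1 and Rbl2 and free the E2F factors, which switch on genes of DNA synthesis. Cyclin A with CDK2 then acts in S phase, and cyclin B with CDK1 drives mitosis. INK4 inhibitors (Cdkn2a to Cdkn2d) block CDK4 and CDK6, whereas cyclins C, H, K, L and T pair with kinases that act mainly on transcription. In myeloid progenitors, high CDK6 and cyclin D levels go with proliferation, and maturation ends in exit from the cycle.

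To be tested, a probe needed a signal well above background on 3 or more of the 12 arrays, and unflagged values on 2 or more arrays in every group. Of the 48 genes, 39 were tested, among 14867 genes in all. Ccnd1, Ccna1 and Ccnb3 were not well above background on any array. The other 6 (Ccnd3, Ccne1, Ccna2, Ccni, Cdkn2c and Cdkn2d) were bright genes that lost spots to the outlier flags of the scanner software, and they are described separately. Levels are log2 signal relative to the 75th percentile of the array, which lay between 1196 and 2583 units. Between 50.3% and 55.7% of spots were well above background, and arrays of the same group correlated across genes with r from 0.990 to 0.995. Hnrnpa0, listed as Hnrpa0 and targeted by the shRNA, was lower in shRNA cells by a log2 difference of -1.54 before 4-OHT (limma, adjusted p = 0.0127) and of -2.10 after it (adjusted p = 0.00513). The headers place the untreated control arrays, with control A at 24 h, on slide 1. Slide 2 held control B and C after 4-OHT with shRNA A and B before it, and slide 3 held shRNA C before 4-OHT with the 3 shRNA arrays after it. Within a treatment the vectors shared no slide. Among myeloid markers, Kit, Gata2 and Myb were well above background on every array and Cd34 on none. The mean level of Kit went from 2.07 to 0.15 over 4-OHT in control cells and from 2.18 to 0.64 in shRNA cells, and Myb went from 4.91 to 3.44 and from 4.79 to 3.69. Gata2 was lower after 4-OHT as well. The granulocyte genes did not all move alike in control cells. Gfi1 went from 4.99 to 2.55, and Elane (listed as Ela2) and Prtn3 were lower too. Mpo went from 5.28 to 5.31 and Ctsg from 5.35 to 5.19. Of 6 macrophage markers, 4 were well above background before 4-OHT and 6 after it, so progenitor and macrophage RNA moved with every 4-OHT comparison. Their part in the changes below was not tested. In such bulk RNA, fewer cells of a type and less RNA per cell cannot be told apart. Of 5 markers each of T cells, B cells, erythroid, mast and megakaryocyte cells, 1 or 2 were well above background on every array, while Cd3g, Cd8a, Pax5 and Ms4a1 were so on none.

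The first question was how the machinery changed over 24 h in 4-OHT. In control cells 15 of the 39 tested genes (38.5%) passed an adjusted p of 0.05 in limma, against 40.3% of all genes tested. Of these, 9 rose, where 17.4% of all genes rose, and 6 fell, where 23% of all genes fell. In shRNA cells 14 (35.9%) passed, against 38.1% of all genes, with 8 higher (16.3% of all genes) and 6 lower (21.7%). The share of changed genes was thus near the background in both vectors. Their median absolute change was 0.19 on the log2 scale in control cells, against 0.26 over all genes, and 0.26 against 0.28 in shRNA cells. In both vectors 10 genes (25.6%) passed, all 10 in the same direction, against 31.9% of all genes. Of these, 6 rose (13.8% of all genes) and 4 fell (18.1%). These 10 were 66.7% of the control calls and 71.4% of the shRNA calls, and over all genes the shares were 79.1% and 83.7%. The rises were Cdkn2b, Ccnt2, E2f5, Rbl1, E2f1 and Ccnc, and the falls were Ccng2, Cdk6, E2f3 and Rbl2.

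The groups of 3 arrays before and after 4-OHT did not overlap for 18 of the 39 genes in control cells (50.8% of all genes) and for 22 in shRNA cells (51.4%). With a fixed slide term all 15 and all 14 genes kept their direction, while 8 and 5 of them still passed. With normexp background correction 7 and 9 of them did. Over all genes, 36.1% and 30.4% passed with the slide term, and 28.4% and 27.1% with normexp. These percentages count every gene that passed in that fit, not the share of calls kept. Without control C before 4-OHT the control count was 8 (34.3% of all genes), as it was without control B after it (33.8%). Without shRNA A before 4-OHT the shRNA count was 9 (31.9%).

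**Figure D1:**
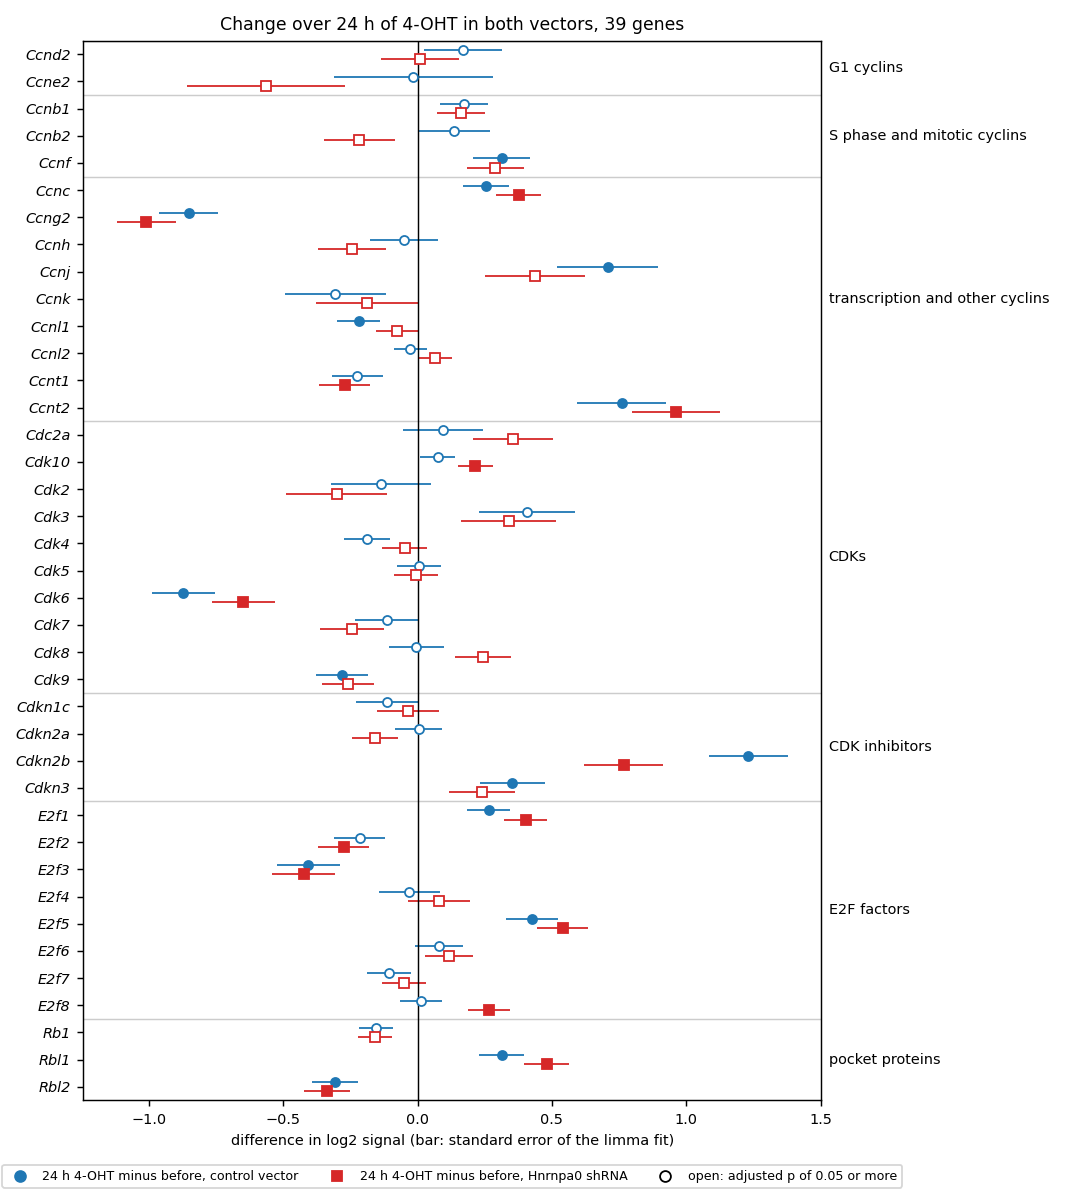
Change over 24 h of 4-OHT for the 39 tested genes, ordered by role. The horizontal axis is the difference in log2 signal with the standard error of the limma fit, circles are control cells, squares are shRNA cells, and open symbols did not pass an adjusted p of 0.05. Cdkn2b and Ccnt2 lie farthest to the right and Ccng2 and Cdk6 farthest to the left in both vectors, with saturated spots (Cdk6, Ccnd2 and Ccnb2) and the dim spots of Cdk3 drawn at their recorded values.

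Among the inhibitors, Cdkn2b rose. It encodes an INK4 protein that blocks CDK4 and CDK6. Its level was -3.38, -2.77 and -2.93 on control arrays A, B and C before 4-OHT and -1.67, -1.85 and -1.85 after it. In shRNA cells it was -3.04, -2.97 and -2.83 before and -2.12, -2.07 and -2.35 after. The groups before and after did not overlap in either vector. The rise was 2.35-fold in control cells (log2 1.23, SE 0.15, adjusted p = 6.15e-05 in limma) and 1.70-fold in shRNA cells (log2 0.77, SE 0.15, adjusted p = 0.00187). With a fixed slide term the shRNA value was 0.65 with adjusted p = 0.0525. Cdkn3, a phosphatase that acts on CDKs, rose in control cells by a log2 change of 0.35 (adjusted p = 0.0406), a call lost in 8 of 12 fits that left out 1 array. Cdkn2a, which also encodes an INK4 protein, and Cdkn1c, a CIP/KIP inhibitor, did not pass in either vector. Their log2 changes were 0.00 and -0.11 in control cells.

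Cdk6, the D-cyclin partner kinase of early blood progenitors, fell in both vectors. Its levels were 5.44, 5.10 and 5.27 on the control arrays before 4-OHT and 4.36, 4.45 and 4.40 after it. The shRNA arrays gave 4.95, 5.09 and 5.33 before and 4.35, 4.45 and 4.62 after. Every array after 4-OHT was below every array before it. On this probe (mm7 build of the array design, chromosome 5, 3535293 to 3535352) the spot was saturated on 2 of 3 arrays before 4-OHT in each vector and on none after it, so the size of the fall is a lower limit. At the recorded values it was 1.83-fold in control cells (log2 -0.87, SE 0.12, adjusted p = 0.000153) and 1.57-fold in shRNA cells (log2 -0.65, SE 0.12, adjusted p = 0.00131). Both other Cdk6 probes, which were saturated on no array, were fitted one by one. They gave log2 changes of -1.31 and -1.07 in control cells and -1.09 and -0.87 in shRNA cells, and each passed. Within slide 1 alone the main probe changed by -0.92 in control cells, and within slide 3 alone by -0.85 in shRNA cells.

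Of the other 9 CDKs, 1 passed in each vector. Cdk4, the second partner of D cyclins, changed by -0.19 in control cells (adjusted p = 0.102) and by -0.05 in shRNA cells (adjusted p = 0.678). For Cdk2, partner of cyclins E and A, the log2 changes were -0.14 and -0.30, and neither passed. Cdc2a, the mitotic kinase, gave 0.09 and 0.36 (adjusted p = 0.653 and 0.0872). Cdk9, the kinase partner of cyclin T in transcript elongation, fell in control cells by a log2 change of -0.28 (adjusted p = 0.0412), and its shRNA value was -0.26 (adjusted p = 0.0592). A fixed slide term gave -0.14 for Cdk9 in control cells with adjusted p = 0.291. Cdk10 rose in shRNA cells by 0.21 (adjusted p = 0.0243), and its control value was 0.07. Cdk3 was not well above background on any control array before 4-OHT and was on all 3 after it. Untreated shRNA cells, at a mean of -4.68 against -4.72 in untreated control cells, were well above background on all 3 arrays. The lowest well-above signal was -4.60, -4.74 and -4.64 on the untreated control arrays, and -5.08, -4.89 and -5.19 on the untreated shRNA arrays. With the control values of Cdk3 before 4-OHT raised to at least that signal of each array, the control means differed 1.23-fold. The control groups before and after overlapped, and the difference did not pass (adjusted p = 0.0960). Cdk5, Cdk7 and Cdk8 did not pass in either vector.

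Among the G1 cyclins, Ccnd2 and Ccne2 were tested on the brightest probe of the gene and did not pass in either vector, and Ccne1 is given with the flagged genes. Ccnd2, a D-type cyclin of blood cells, was saturated on 6 arrays, 3 of them control arrays after 4-OHT. It lost 1 array in each group before 4-OHT to flags. No size of change is given for it, since 1 of 2 control arrays before 4-OHT and 2 of 3 shRNA arrays after it were saturated too. Neither cyclin B gene passed. Ccnb1, the main partner of CDK1 at mitotic entry, read 2.60, 2.50 and 2.58 in control cells before 4-OHT and 2.96, 2.61 and 2.63 after it. Its values in shRNA cells were 2.55, 2.54 and 2.64 before and 2.70, 2.76 and 2.75 after. Each after group lay above its before group, by 0.17 (adjusted p = 0.153) and 0.16 (adjusted p = 0.180). Ccnb2, the second cyclin B, was saturated on 5 arrays, all after 4-OHT, so that the size of its change was not measured. Ccnf, which despite its name is the substrate-binding part of a ubiquitin ligase, rose in control cells by 0.31 (adjusted p = 0.0399), and its shRNA value of 0.29 had adjusted p = 0.0561. That control call stood in 3 of 12 fits that left out 1 array.

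Among the cyclins of transcription and other function, Ccng2 fell and Ccnt2 and Ccnc rose in both vectors. Ccng2 encodes cyclin G2, which is high in resting cells and has no established kinase activation role. Its level was 2.18, 2.39 and 1.95 in control cells before 4-OHT and 1.34, 1.35 and 1.27 after it. In shRNA cells it was 2.16, 2.16 and 2.09 before and 1.26, 1.16 and 0.96 after. All 6 arrays after 4-OHT were below all 6 before it. The fall was 1.80-fold in control cells (log2 -0.85, SE 0.11, adjusted p = 0.00012) and 2.01-fold in shRNA cells (log2 -1.01, SE 0.11, adjusted p = 3.77e-05), and it passed in each of 12 fits that left out 1 array.

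Ccnt2, a cyclin T that activates Cdk9, rose 1.69-fold in control cells (log2 0.76, SE 0.16, adjusted p = 0.00376) and 1.95-fold in shRNA cells (log2 0.96, SE 0.16, adjusted p = 0.00094). The arrays read -0.27, -0.01 and -0.02 in control cells before 4-OHT and 0.29, 0.72 and 0.97 after it. For shRNA cells they read -0.43, -0.41 and -0.07 before and 0.56, 0.71 and 0.70 after. Control A after 4-OHT, the array on slide 1, was the lowest of its group, and the control change with a fixed slide term was 0.39 (adjusted p = 0.0570). Of the other Ccnt2 probes, one gave 0.12 and 0.23 in control and shRNA cells, and the other 0.27 and 0.12. Ccnj, a cyclin studied mainly in fly embryos, rose 1.63-fold in control cells (adjusted p = 0.0115). Its values were -4.18, -4.57 and -3.68 before and -3.37, -3.42 and -3.52 after. In shRNA cells the Ccnj difference was 0.44 with adjusted p = 0.0896. Ccnc, the Mediator cyclin that pairs with Cdk8, rose by 0.26 in control cells (adjusted p = 0.0338) and by 0.38 in shRNA cells (adjusted p = 0.00514). The control call stood in 7 of 12 fits that left out 1 array. The mean of all Ccnc probes changed by 0.29 in control cells (limma, adjusted p = 0.0562) and by 0.19 in shRNA cells (adjusted p = 0.195). Ccnt1 fell in shRNA cells by -0.27 (adjusted p = 0.0461), and Ccnl1, a cyclin of RNA splicing, fell in control cells by -0.22 (adjusted p = 0.0472). The Ccnt1 call stood in 2 and the Ccnl1 call in 3 of 12 fits that left out 1 array.

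Among the E2F factors, E2f1 and E2f5 rose and E2f3 fell in both vectors. E2f1, an activator of S phase genes, rose by 0.26 in control cells (SE 0.08, adjusted p = 0.0235) and by 0.40 in shRNA cells (SE 0.08, adjusted p = 0.00262). Its control values were 0.26, 0.13 and 0.18 before 4-OHT and 0.40, 0.46 and 0.51 after it. The shRNA arrays gave 0.41, 0.38 and 0.49 before and 0.68, 0.83 and 0.97 after, again without overlap. With a fixed slide term E2f1 changed by 0.20 in control cells (adjusted p = 0.192) and by 0.34 in shRNA cells (adjusted p = 0.0524). The mean of all E2f1 probes changed by 0.18 in control cells (limma, adjusted p = 0.194) and by 0.30 in shRNA cells (adjusted p = 0.0419). E2f3, also an activator, fell by 0.41 on the log2 scale in control cells (SE 0.12, adjusted p = 0.0175) and by 0.42 in shRNA cells (SE 0.12, adjusted p = 0.0155). The E2f3 arrays read 2.41, 2.36 and 2.42 before and 2.05, 2.04 and 1.88 after in control cells, and 2.26, 2.11 and 1.76 before and 1.66, 1.69 and 1.502 after in shRNA cells. Before 4-OHT, shRNA C on slide 3 was below shRNA A and B on slide 2, and with a fixed slide term the shRNA change was -0.14 (adjusted p = 0.354). The other E2f3 probes changed by -0.08 and -0.20 in control cells without passing.

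E2f5, a repressor type that binds the pocket proteins Rbl1 and Rbl2, rose by 0.43 in control cells (SE 0.10, adjusted p = 0.00475) and by 0.54 in shRNA cells (SE 0.10, adjusted p = 0.00121). Control values were -1.32, -1.41 and -1.21 before and -0.84, -1.01 and -0.80 after, and shRNA values were -1.22, -1.21 and -1.06 before and -0.73, -0.69 and -0.45 after. A second E2f5 probe rose by 0.45 and 0.43, but a mean that took in its dim probes was -0.04 in shRNA cells. E2f2, an activator, fell by 0.27 in shRNA cells (adjusted p = 0.0419), and its control change was -0.22 (adjusted p = 0.0959). Its shRNA call stood in 2 of 12 fits that left out 1 array, and with a fixed slide term the change was -0.06 (adjusted p = 0.590). E2f8, an atypical repressor, rose by 0.27 in shRNA cells (adjusted p = 0.0207), and its control change was 0.01. It was 1 of 2 genes whose responses differed at an unadjusted p under 0.05, by 0.25 (adjusted p = 0.937). E2f4, E2f6 and E2f7 did not pass in either vector. With a fixed slide term, however, E2f4 rose by 0.28 in control cells and passed (limma, adjusted p = 0.0322), where it was -0.03 without that term.

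Of the pocket proteins, Rbl1 (p107) rose and Rbl2 (p130) fell. Rbl1 levels in control cells were 1.14, 1.00 and 1.09 before 4-OHT and 1.25, 1.51 and 1.42 after it. In shRNA cells they were 1.04, 0.94 and 0.96 before and 1.48, 1.55 and 1.35 after. The rise was 0.31 (SE 0.08, adjusted p = 0.0118) and 0.48 (SE 0.08, adjusted p = 0.00101). Rbl2 read 0.09, 0.08 and 0.21 in control cells before and -0.24, -0.06 and -0.26 after, and 0.02, -0.05 and -0.19 in shRNA cells before and -0.42, -0.32 and -0.51 after. Its fall was -0.31 (SE 0.08, adjusted p = 0.0142) and -0.34 (SE 0.08, adjusted p = 0.00951), and a second probe gave -0.26 and -0.30. The groups before and after did not overlap for either gene. Rb1 itself gave -0.15 and -0.16, with adjusted p = 0.0785 and 0.0748. With a fixed slide term the Rbl1 control change was 0.17 (adjusted p = 0.230) and the Rbl2 shRNA change was -0.23 (adjusted p = 0.160).

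**Figure D2:**
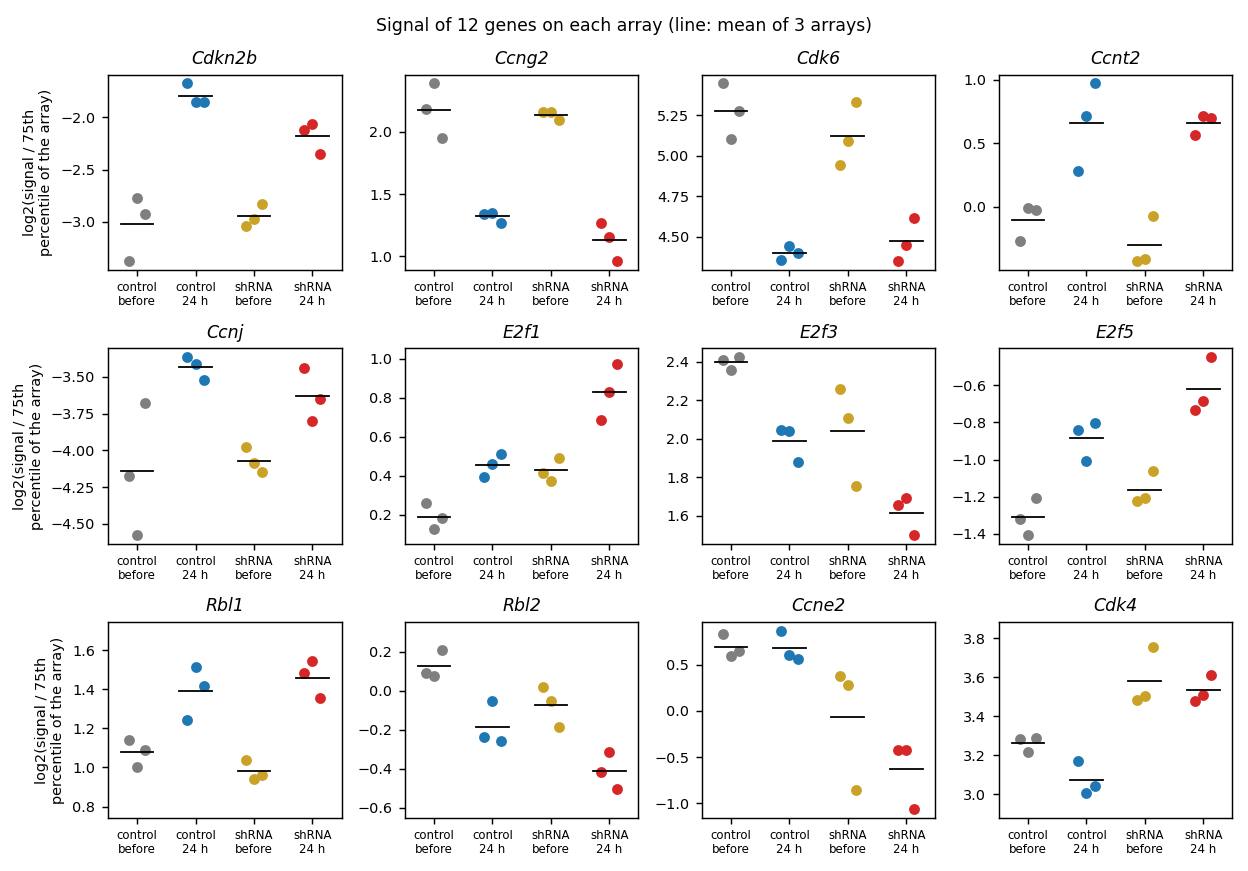
Signal of 12 genes on each array. The vertical axis is log2 signal relative to the 75th percentile of the array, points are arrays A, B and C from left to right, and the line is their mean. Cdkn2b, Ccnt2 and Rbl1 are higher, and Ccng2, Cdk6 and Rbl2 lower, at 24 h than before in both vectors, and Ccne2 is lowest on shRNA array C before and after 4-OHT.

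Promoter sequence was set beside these changes for the 4 genes that changed by at least 1.5-fold in both vectors (Cdkn2b, Ccng2, Cdk6 and Ccnt2) and for the E2F and pocket protein genes that moved and hold E2F letters (Rbl1 and E2f3). Entries from RefSeq (GRCm38.p6) matched 37 of the 48 genes, with 42 start sites, and the 250 bases before each start were searched on both strands. The letters were the E2F site (TTTCGCGC, TTTGGCGC, TTTCCCGC or TTTGCCGC), the cell cycle homology region (TTTGAA) and the core of PU.1 sites (GAGGAA), none of which holds another. They are given 5′ to 3′ with matches of either strand in capitals.
Cdkn2b, chr4:89311033-89311282, minus strand: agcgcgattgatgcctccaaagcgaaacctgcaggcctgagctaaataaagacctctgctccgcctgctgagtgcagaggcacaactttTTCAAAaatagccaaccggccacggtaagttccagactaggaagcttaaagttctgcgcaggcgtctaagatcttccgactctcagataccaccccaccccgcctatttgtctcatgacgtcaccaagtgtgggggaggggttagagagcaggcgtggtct
Ccng2, chr5:93267323-93267572, plus strand: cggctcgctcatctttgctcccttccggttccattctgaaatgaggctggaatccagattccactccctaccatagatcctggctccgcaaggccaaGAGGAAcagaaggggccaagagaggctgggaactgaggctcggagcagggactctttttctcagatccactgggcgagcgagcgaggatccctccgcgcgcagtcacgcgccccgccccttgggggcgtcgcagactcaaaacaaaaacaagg
Cdk6, chr5:3343643-3343892, plus strand: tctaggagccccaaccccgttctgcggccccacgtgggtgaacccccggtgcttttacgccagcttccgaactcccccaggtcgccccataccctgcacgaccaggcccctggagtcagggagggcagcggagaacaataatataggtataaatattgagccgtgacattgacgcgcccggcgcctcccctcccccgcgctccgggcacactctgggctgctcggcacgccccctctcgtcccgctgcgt
Ccnt2, chr1:127773914-127774163, plus strand: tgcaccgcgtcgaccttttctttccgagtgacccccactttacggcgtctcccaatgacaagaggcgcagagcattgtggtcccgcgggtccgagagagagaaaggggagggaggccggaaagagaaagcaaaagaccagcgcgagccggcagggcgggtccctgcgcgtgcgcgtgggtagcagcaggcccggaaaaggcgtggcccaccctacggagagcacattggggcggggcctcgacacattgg
Rbl1, chr2:157204535-157204784, minus strand: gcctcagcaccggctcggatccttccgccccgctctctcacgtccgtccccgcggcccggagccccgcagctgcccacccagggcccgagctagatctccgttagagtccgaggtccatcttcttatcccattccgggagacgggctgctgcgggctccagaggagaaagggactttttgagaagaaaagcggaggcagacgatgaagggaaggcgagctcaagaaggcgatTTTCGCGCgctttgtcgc
E2f3, chr13:29986064-29986313, minus strand: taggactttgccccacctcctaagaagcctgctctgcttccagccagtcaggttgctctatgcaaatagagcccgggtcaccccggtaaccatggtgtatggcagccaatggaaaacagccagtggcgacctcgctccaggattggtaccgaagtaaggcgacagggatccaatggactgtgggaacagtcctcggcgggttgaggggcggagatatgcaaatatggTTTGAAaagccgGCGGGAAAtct
The capitals mark TTTGAA on the reverse strand in Cdkn2b, 161 bases before the start, and GAGGAA in Ccng2, 153 bases before it. Rbl1 has TTTCGCGC 18 bases before its start, and E2f3 has TTTGAA at 23 and TTTCCCGC on the reverse strand at 11. The second E2f3 start and the Cdk6 and Ccnt2 windows held no match. E2F letters stood in 6 of the 37 genes (Cdc2a, Cdk2, Cdkn2a, E2f3, E2f7 and Rbl1). By start site that was 6 of 42 (14.3%), against 1.86% of all 32851 promoters. TTTGAA stood in 10 genes and 23.8% of the 42 start sites, against 16% of all promoters. GAGGAA stood in 12 genes and 28.6% of the start sites, against 23.3%. The 42 windows held from 42.8% to 79.2% GC, where the median of all promoters was 52.4%. The part of GC in the matches was not tested. Of the 18 genes with an entry that passed in either vector, 2 held E2F letters, 7 held TTTGAA and 6 held GAGGAA. These are matches of letters, not sites shown to be bound.

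For the 6 genes lost to outlier flags, the same fit was run with flagged spots kept, as another setting. The flags took 17% of the values of bright probes of these families (log2 level over 2), against 8.49% over all bright probes. Ccnd3, a D-type cyclin of blood cells, read 3.95, 3.80 and 3.80 in control cells before 4-OHT (B and C flagged) and 3.004, 2.97 and 2.96 after it with no flag. In shRNA cells it read 3.98, 3.94 and 4.06 before and 3.28, 3.26 and 3.56 after, with 1 flagged array in each group. With the flagged spots the fall was 1.83-fold in control cells (log2 -0.87, adjusted p = 1.62e-05) and 1.54-fold in shRNA cells (log2 -0.63, adjusted p = 0.000207), and the unflagged arrays alone lay in the same order without overlap.

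Cdkn2d, another INK4 inhibitor, read 3.35, 3.22 and 3.20 in control cells before (B and C flagged) and 2.88, 2.69 and 2.53 after. In shRNA cells, where no spot was flagged, it read 3.14, 3.04 and 3.09 before and 2.57, 2.54 and 2.48 after. Its fall in that fit was 1.47-fold in control cells (adjusted p = 0.000509) and 1.48-fold in shRNA cells (adjusted p = 0.000509). Cdkn2c, the other INK4 gene, rose by 0.30 in control cells (adjusted p = 0.0352) and gave 0.22 in shRNA cells (adjusted p = 0.114). So the INK4 genes moved in different directions: Cdkn2b up, Cdkn2d down. Ccni fell in shRNA cells by 0.33 (adjusted p = 0.00818). Ccne1, partner of Cdk2 at S phase entry, fell in control cells by 0.28 (adjusted p = 0.0387), and an unflagged second probe gave -0.29 (adjusted p = 0.0225). Ccna2, the S phase cyclin, was flagged on all 6 control arrays and changed by 0.08 and 0.18 without passing.

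**Figure D3:**
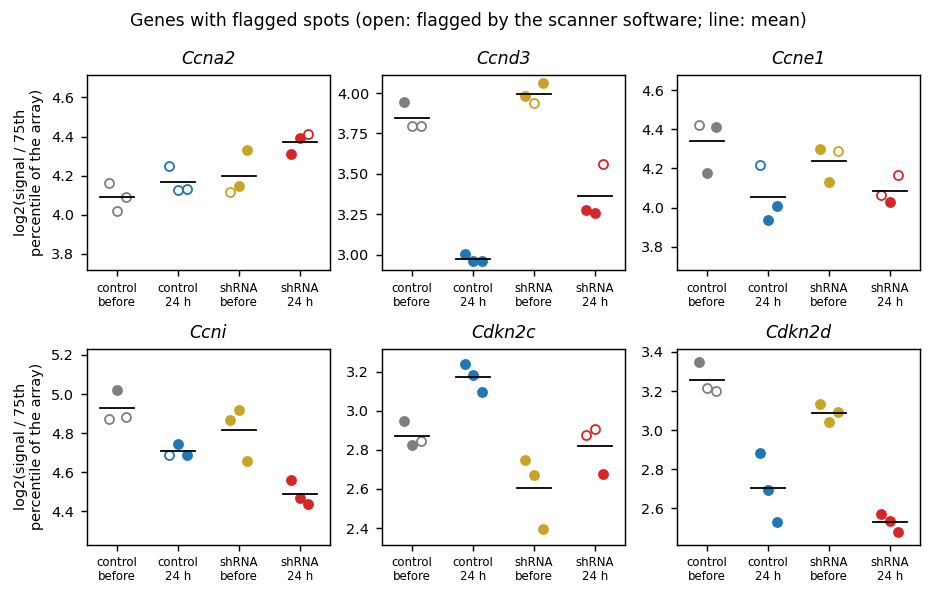
Signal of the 6 genes that lost spots to outlier flags. The vertical axis is log2 signal relative to the 75th percentile of the array, open points are spots that the scanner software flagged, and the line is the mean of 3 arrays. Ccnd3 and Cdkn2d are lower at 24 h than before in both vectors.

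Genes that work with the machinery were counted from 6 lists of 121 names, 108 of them tested. In control cells 14 rose and 18 fell, and in shRNA cells 12 rose and 20 fell. These shares are to be read against the 17.4% and 23% of all genes that rose and fell in control cells, and the 16.3% and 21.7% in shRNA cells. Of 24 mitotic genes, 5 rose in control cells and none fell, led by the kinesins Kif23 (0.79) and Kif20a (0.45), with Nusap1, Cenpa and Foxm1. In shRNA cells 4 of these passed, among them Kif23 (0.65) and Foxm1 (0.38). Of 27 E2F targets of DNA synthesis, 5 rose and 6 fell in control cells. Pola2 (0.49), of DNA polymerase alpha, and Orc1l (0.48), of the origin recognition complex, were among the rises, and Rrm2 (-0.60) and Tk1 (-0.56), both of nucleotide supply, fell most.

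Of 15 regulators of D cyclins and G1, 6 fell in control cells and 1 rose. The falls were led by Gadd45a (-1.83), a growth arrest gene, and Mxd1 (-1.54), a Myc antagonist, and Myc fell by 0.50. The rise was Pim1, a kinase gene, at 0.50. Cdc25a, the phosphatase that activates CDK2, fell in control cells by 0.84 (adjusted p = 5.67e-06) and in shRNA cells by 0.56 (adjusted p = 0.000124), and Wee1, which opposes it, fell in control cells by 0.46. Of the other CDK phosphorylation genes 1 rose, Cdc25b at 0.25. Tfdp1 (-0.48) and Mybl2 (-0.46) fell among 7 E2F partners and DREAM complex genes, and Lin54, listed as AI461788, rose by 0.25. Among 23 ubiquitin ligase genes, Anapc2 rose by 0.40 and Dtl (-0.62) and Cdc26 (-0.39) fell.

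The second question was whether the shRNA changed the machinery. Before 4-OHT none of the 39 genes passed in limma, against 0.383% of all genes. At an unadjusted p under 0.05 there were 11, where 22.2% of all genes fell under it. The lowest adjusted p was that of Cdk4 (0.0907), with a log2 difference of 0.32. After 4-OHT 10 genes (25.6%) passed, against 16.4% of all genes. Of these, 6 were higher in shRNA cells (7.8% of all genes) and 4 were lower (8.64%). The vectors did not overlap for 15 of the 39 genes before 4-OHT (32.4% of all genes) and for 19 after it (38.5%). All 10 kept their direction with a fixed slide term and with a random one. None passed under either, where 1 and 0 of all 14867 genes did. The vector comparisons set slides against each other, and slide and vector cannot be told apart within a treatment. Using no filter on dim probes gave a count of 0, where 0.899% of all genes passed. Leaving out control B at 24 h gave 0 (1.35% of all genes), and control A 5 (7.58%). Leaving out shRNA A at 24 h gave 5 (8.59%), shRNA B 1 (3.71%) and shRNA C 1 (2.47%).

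**Figure D4:**
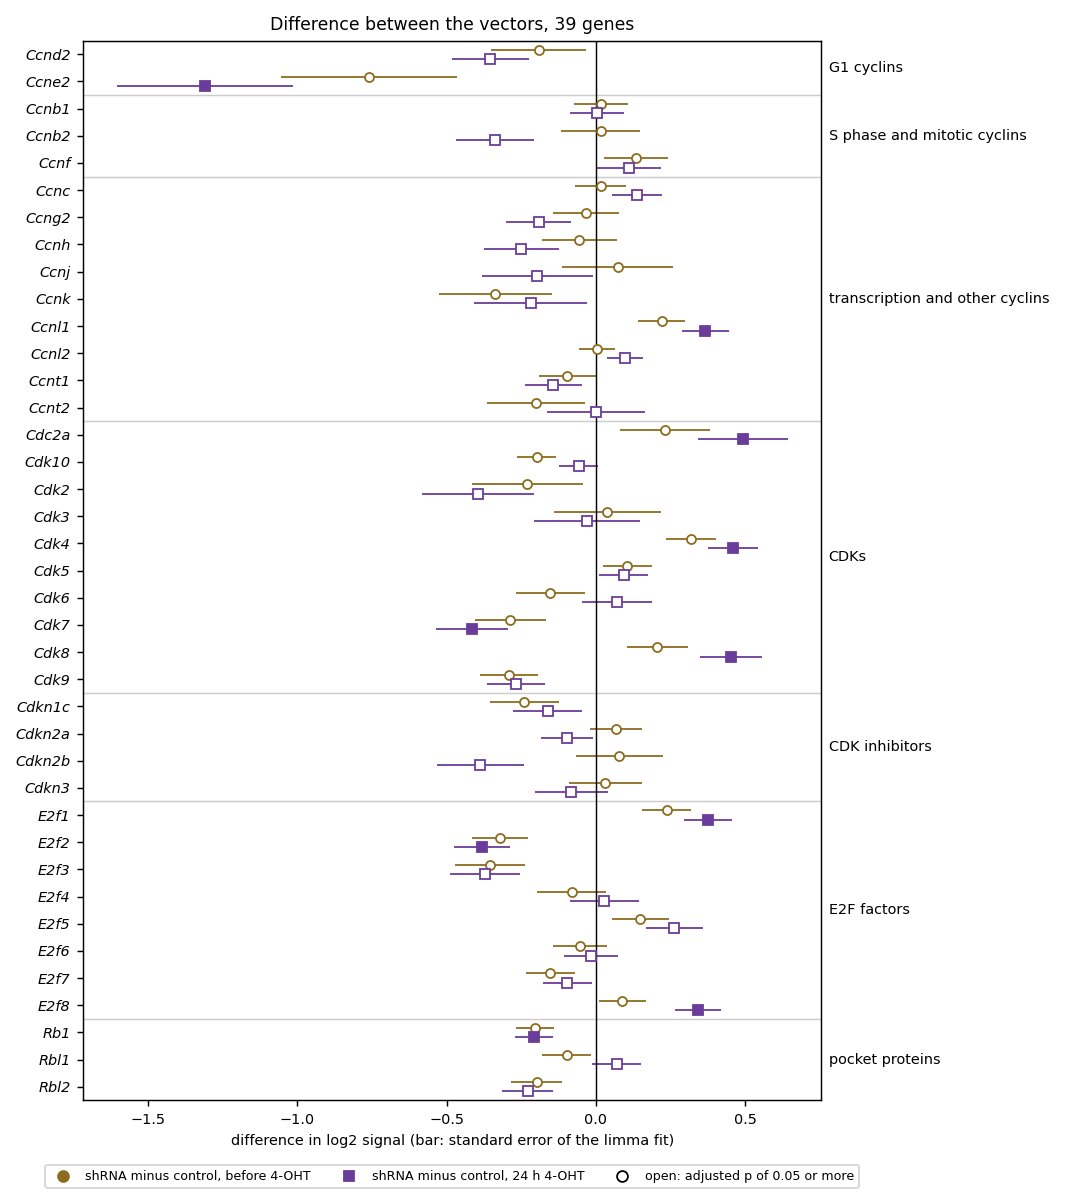
Difference between shRNA and control cells for the 39 tested genes, before 4-OHT (circles) and at 24 h (squares). The horizontal axis is the difference in log2 signal with the standard error of the limma fit, and open symbols did not pass an adjusted p of 0.05. Ccne2 lies farthest to the left at both times, only squares are filled, and the saturated spots of Ccnd2, Ccnb2 and Cdk6 are drawn at their recorded values.

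Ccne2, an E-type cyclin that activates Cdk2, was 2.48-fold lower in shRNA than in control cells after 4-OHT (log2 -1.31, SE 0.30, adjusted p = 0.0219). Its control levels were 0.83, 0.59 and 0.65 before and 0.86, 0.61 and 0.56 after. The shRNA levels were 0.38, 0.28 and -0.86 before and -0.42, -0.42 and -1.06 after. Array C was the lowest of the shRNA arrays at both times, and all 6 shRNA arrays were below all 6 control arrays. Before 4-OHT the difference was -0.76 (adjusted p = 0.175). The second Ccne2 probe gave -1.04 after 4-OHT (adjusted p = 0.0230 with each probe fitted). With a fixed slide term the difference after 4-OHT was -0.03 and with a random one -0.85 (adjusted p = 0.258). On slide 3, where shRNA array C before 4-OHT sat with the 3 arrays after it, the 4-OHT change of Ccne2 was 0.23, and over all shRNA arrays it was -0.56. In the fits that left out 1 array the difference ranged from -1.42 to -1.10, and 8 of 12 passed, the exceptions being those without control A or B, or without shRNA B or C, at 24 h.

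Cdk4 was higher in shRNA cells after 4-OHT by 0.46 (SE 0.08, adjusted p = 0.0145). The control arrays gave 3.29, 3.21 and 3.29 before and 3.17, 3.01 and 3.04 after, and the shRNA arrays 3.48, 3.502 and 3.75 before and 3.48, 3.51 and 3.61 after. Every shRNA array was above every control array. With a fixed slide term the difference was 0.24 (adjusted p = 0.762). Cdc2a was higher by 0.49 (adjusted p = 0.0496), at 2.72, 2.70 and 2.71 in shRNA cells against 2.53, 2.11 and 2.01 in control cells, where array A on slide 1 was the highest. E2f1 was higher by 0.37 (adjusted p = 0.0199) and E2f8 by 0.34 (adjusted p = 0.0220). E2f2 was lower by -0.38 (adjusted p = 0.0276), and Rb1 was lower by -0.21 (adjusted p = 0.0493). The E2f8 direction rested on its main probe, since the mean of its probes was -0.01. The mean of the E2f1 probes was higher by 0.33 and did not pass (limma, adjusted p = 0.0633). The Rb1 call stood in 1 and the Cdc2a call in 3 of 12 fits that left out 1 array.

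The remaining calls after 4-OHT were kinases and a cyclin of transcription, and their probes did not move together. Cdk8 of the Mediator complex was higher by 0.45 on its main probe (adjusted p = 0.0223) and lower by -0.51 on its other probe (adjusted p = 0.0276 with each probe fitted). Ccnl1 was higher by 0.37 (adjusted p = 0.0198), and its other probes gave 0.03 and -0.13. Cdk7, the CDK-activating kinase of TFIIH, was lower by -0.42 (adjusted p = 0.0421), and its other probe gave 0.24. Cdk7 was lowest on shRNA array C both before 4-OHT (1.22 against 1.51 and 1.52) and after it (0.95 against 1.35 and 1.23). Its partner Ccnh, which did not pass, was also lowest there at both times, at 0.89 and 0.65. Over the 10 genes, 3 of 7 other probes had the sign of the main probe, whereas for 4-OHT it was 12 of 13 in control cells and 13 of 13 in shRNA cells. In the fit that kept flagged spots, run without a slide term, Ccnd3 was higher in shRNA cells after 4-OHT by 0.39 (adjusted p = 0.0197) and Cdkn2c lower by -0.35 (adjusted p = 0.0397). The unflagged second Ccne1 probe was higher by 0.35 (adjusted p = 0.0265 with each probe fitted). The brighter Ccne1 probe, in the fit that kept flagged spots, gave 0.03 (adjusted p = 0.837).

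**Figure D5:**
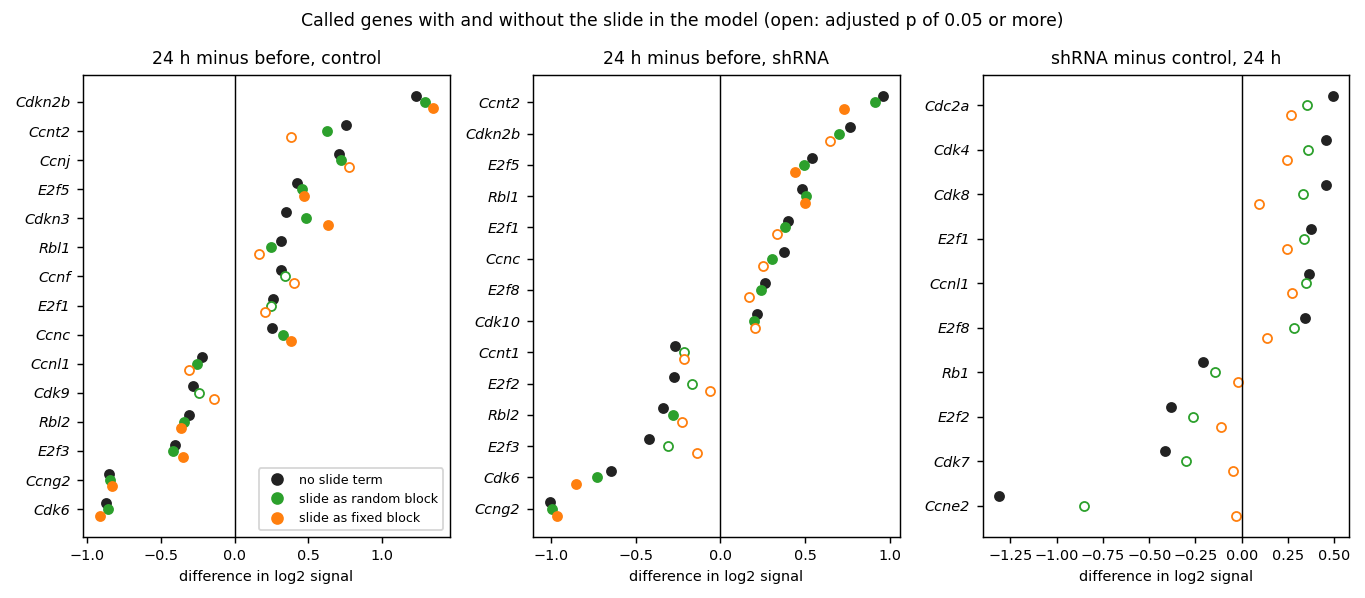
Genes that passed in each comparison, with no slide term, with a random and with a fixed slide term. The horizontal axis is the difference in log2 signal, and open points did not pass an adjusted p of 0.05. Cdk6 and Ccng2 stay filled under both blocks for 4-OHT, and all block points are open for shRNA against control at 24 h.

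The third question was whether the shRNA altered the 4-OHT response. None of the 39 genes passed the test of the difference between responses in limma, and 0% of all genes did. At an unadjusted p under 0.05 there were 2 genes, E2f8 and Cdkn2b, where 5.24% of all genes fell under it. The Cdkn2b rise was smaller in shRNA cells by 0.47 (SE 0.21, adjusted p = 0.944). For Ccng2 the responses differed by -0.16 (SE 0.16). For Ccne2 they differed by -0.55 (SE 0.42), an error too wide to separate a change of that size from none. Among the 108 genes of the lists, 15 were higher and 6 lower in shRNA cells after 4-OHT, where 7.8% and 8.64% of all genes were. No listed gene passed this comparison with a fixed or with a random slide term. Without one, Cdc25a was higher by 0.58 (adjusted p = 0.00748) and Wee1 by 0.41 (adjusted p = 0.0158). None of the 108 passed before 4-OHT or for the difference between responses.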

How the data were processed

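RNA of 12 PUER cultures, 3 per group, was measured on one-colour arrays (design 014868). Per the file headers, the authors extracted spots in Agilent's Feature Extraction (version 9.5.3.1, or 9.5 in the submitters' processing notes). The authors deposited each spot's Cy3 intensity on a linear scale, background-subtracted and not scaled between arrays. The authors' deposited summary table holds the same intensity rounded, within 0.497% of the scanner values.

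Control and outlier-flagged spots were dropped, spots of a probe averaged, and signal divided by the array's own 75th percentile before log2. Each gene name was represented by its probe of highest mean. limma 3.58.1 (R 4.3.3) was fitted to 4 group means over 12 arrays, tested on simulated data first, and p-values were adjusted by Benjamini-Hochberg over 14867 genes at a threshold of 0.05. Fits of each probe on its own and within slides were added after seeing the data. Replicates are per the labels separate experiments with separate clones. Their number limits the precision.

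Genes and lists were chosen with earlier results of these data known. Named genes were those called with at least a 1.5-fold change, those called between vectors, and in each role the one of highest mean signal, with others by direction or count. Per list, up to 2 rises and 2 falls of control cells were named first. Of the 48 probes used, 42 matched a RefSeq symbol by accession and the rest kept the file's name. Figures used Python 3.11.15 and matplotlib 3.10.9.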

Additional observations from a re-analysis of the deposited data

How the results depend on the processing

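Among genes of the machinery, 15 passed for 4-OHT in control cells (40.3% of all genes did). With normexp background correction 7 did (28.4%), with no filter on dim probes 9 (23.2%), and with 1 array left out 8 to 17 (33.8% to 42.2%). In shRNA cells 14 passed (38.1% of all genes). With normexp 9 did (27.1%), with the mean of all probes of a gene 9 (33.9%), and with a fixed slide term 5 (30.4%). With 1 array left out it was 9 to 20 (30.7% to 42.4%). For shRNA against control after 4-OHT, 10 passed (16.4% of all genes). With no dim filter 0 did (0.899%) and with the mean of all probes 3 (8.35%). With a fixed or a random slide term 0 did (0.00673% and 0%), and with 1 array left out 0 to 12 (1.35% to 19.8%). No gene of the machinery passed before 4-OHT or for the difference between responses in any of those leave-one-out fits. Over the listed genes, 32 passed in control cells, against 21 to 34 with 1 array left out. In shRNA cells 32 passed, against 21 with normexp and 21 to 37 with 1 array left out. Before 4-OHT none passed between vectors. Quantile normalization gave 1 (1.09% of all genes), and leaving out 1 array gave 0 to 4 (0% to 3.24%). After 4-OHT 21 passed between vectors, against 10 with normexp (11.5% of all genes), 3 with no dim filter and 7 with the mean of probes. Either slide block gave 0, and leaving out 1 array gave 1 to 27. For the difference between responses, 0 listed genes passed with 1 array left out. Values turned in sign with the mean of all probes for Cdk8 (-0.11) and E2f8 (-0.0108) between vectors after 4-OHT, for Cdkn3 in control cells (-0.0073) and for E2f5 in shRNA cells (-0.0419). E2f4 in control cells turned to 0.28 with a fixed slide term and passed there (limma, adjusted p = 0.0322). The causes were not tested.

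The replicate block paired arrays of the same letter. It gave 14 and 14 genes of the machinery for 4-OHT in control and shRNA cells. For the vectors before and after 4-OHT it gave 0 and 11. In the same order, 35, 31, 0 and 17 listed genes passed, and 41.2%, 39.2%, 0.982% and 18% of all genes did. Arrays of the same letter deviated from their group means with correlations from -0.09 to 0.30 (median 0.06), and 6 of 18 pairs were over 0.1. Arrays of different letters gave -0.32 to 0.17 (median -0.03), with 5 of 36 pairs over 0.1. These values do not settle whether the letters pair the arrays. The labels do not state a pairing, and the letters were not used to pair arrays in the other fits. Normexp moved the median of all genes between vectors after 4-OHT to -0.13. With 3 arrays a group on 3 slides, and bright spots lost to flags or saturation, small differences could not be separated from slide or clone.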

Other observations

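The inhibitor genes Cdkn1a and Cdkn1b were not counted with the others. Cdkn1a, a CIP/KIP inhibitor and p53 target, fell over 24 h of 4-OHT in control cells by 0.38 (limma, adjusted p = 0.0021) and in shRNA cells by 0.44 (adjusted p = 0.000884). Its control arrays read 3.74, 3.72 and 3.60 before and 3.35, 3.33 and 3.25 after. Cdkn1b, which marks resting cells, gave 0.01 and -0.11 without passing (adjusted p = 0.947 and 0.435), with 1 control array before 4-OHT lost to a flag. The cyclin gene Ccng1 lost its spots to outlier flags on 6 of 12 arrays.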
